A study of Mus musculus with 6 samples.

Results

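The genes described here are 46 that cells use to build the mitotic spindle, attach chromosomes to it and divide, among the 54232 genes counted by RNA-seq in primary mouse uterine stromal cells. They were taken by symbol from a fixed list of mitotic kinases, spindle checkpoint and anaphase genes, chromosomal passenger subunits, centromere and kinetochore proteins, kinesins, spindle bundling proteins, condensins and cytokinesis genes, a list that uses no measured value but was drawn up with earlier results of these data known. All 46 had counts and all were among the 17474 genes that the test across genes covered. Transcripts of 31 of them were lower in the Pbrm1 cKO cells, compared with 15.2% of all tested genes. None passed the test in the other direction, compared with 15.9% of all tested genes.

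The cells came from uteri on D4 of pseudopregnancy (1 label says pregnancy), when the mouse stroma normally proliferates ahead of implantation. The comparison asks which transcripts differ in stromal cells from uteri with conditional deletion of Pbrm1. That gene encodes a bromodomain subunit of the PBAF form of the SWI/SNF chromatin remodeler. There were 3 libraries labelled WT, which the study describes as littermates carrying floxed Pbrm1 alleles without Cre (Pbrm1 fl/fl), and 3 Pbrm1 cKO libraries, in which Cre driven from the progesterone receptor locus (PR-IRES-cre) had deleted those floxed alleles. The labels give no drug or hormone treatment for either group. Females were 8 to 12 weeks old, and horns (5 to 10 per preparation) were pooled, digested with enzymes and plated for 4 h and a further 2 h before RNA was taken. The Cre acts wherever the progesterone receptor is made, epithelium and muscle included, so the cells had lived in an altered uterus before they were isolated. The study calls the 3 libraries of a group biological replicates, and the labels do not say whether each was a separate pool of animals, so the p-values measure the spread between these libraries.

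Mitosis begins when cyclin-dependent kinase 1 and the Aurora and Polo kinases drive centrosomes apart and condensins compact the chromosomes. Kinetochores, protein plates on the centromeres, then capture spindle microtubules, and the spindle checkpoint holds the anaphase-promoting complex in check until every chromosome is attached. Once it is released, cohesin is cut, kinesins and bundling proteins build the central spindle, and a ring of actin and myosin closes between the daughter cells. Most of these genes are transcribed mainly in late S, G2 and M phase, and a short promoter element called the cell cycle genes homology region (CHR) is known to bind the MuvB complex, which represses with pocket proteins in resting cells and activates with B-MYB and FOXM1 in dividing ones. In the uterus, stromal division before and after implantation feeds the decidua.

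Promoters are shown because they are what many of these genes share that the list did not use. RefSeq start-site windows of GRCm38.p6 (250 bases before to 50 after the start) were on hand for 40 of the 46 genes, all but Aurkb, Incenp, Spc24, Kif20a, Tpx2 and Smc4. A CHR (TTTGAA or TTTAAA, either strand) lay somewhere in the window of 32 of the 40 (80%), compared with 23.1% of the 11311 tested genes with a window. Within the last 100 bases before the start it lay in 11 of 40 (27.5%), compared with 7.35%. A CCAAT box (CCAAT, either strand), the element bound by NF-Y, lay in those 100 bases in 24 of 40 (60%), compared with 25.5%, and both elements lay there in 9 (22.5%), compared with 1.73%. Of the genes called lower in Pbrm1 cKO, 23 of 27 (85.2%) had a CHR in the whole window, and of those that did not pass, 9 of 13 (69.2%) had one. In the last 100 bases the CHR was found in 33.3% of the first set and 15.4% of the second, and both elements in 25.9% and 15.4%. These differences were not tested, the elements occurred on both sides of the call, and a match of letters is a description, not a bound site.

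Below are the 100 bases before the start for the 8 genes with a CHR in that stretch whose printed bases reach no more than 30 bases into the annotated gene (those of Bub3, Ube2c and Kif22 reach further), written 5′ to 3′ on the gene's own strand, from the gene with the highest WT level per length to the lowest. Capitals mark each CHR (TTTGAA, its reverse complement TTCAAA, or TTTAAA) and each CCAAT box (CCAAT or its reverse complement ATTGG). The CHR of Cdc20, Top2a, Kif11, Prc1, Ncapg and Espl1 begins 18, 23, 19, 30, 30 and 27 bases before the start, that of Mki67 98 bases before it, and Plk1 has 1 at 89 and 1 at 29 bases. Top2a has 3 CCAAT boxes, at 98, 78 and 58 bases, whereas Ncapg and Mki67 have none in this stretch. Espl1 is the only gene of the 8 whose transcript did not pass the test. The stretches are chr4:118437344-118437443 (minus strand) for Cdc20, chr11:99024190-99024289 (minus) for Top2a, chr19:37376282-37376381 (plus) for Kif11, chr7:80294376-80294475 (plus) for Prc1, chr7:122159335-122159434 (plus) for Plk1, chr5:45669825-45669924 (plus) for Ncapg, chr7:135716380-135716479 (minus) for Mki67 and chr15:102296193-102296292 (plus) for Espl1.
Cdc20: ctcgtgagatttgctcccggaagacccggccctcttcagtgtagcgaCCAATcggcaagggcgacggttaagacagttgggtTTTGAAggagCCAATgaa
Top2a: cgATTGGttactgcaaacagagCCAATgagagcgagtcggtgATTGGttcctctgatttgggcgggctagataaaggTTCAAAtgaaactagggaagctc
Kif11: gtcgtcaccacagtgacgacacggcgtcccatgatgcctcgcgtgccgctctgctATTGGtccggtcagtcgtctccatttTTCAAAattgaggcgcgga
Prc1: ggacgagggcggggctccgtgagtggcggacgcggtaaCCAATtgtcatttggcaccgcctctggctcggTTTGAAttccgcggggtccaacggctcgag
Plk1: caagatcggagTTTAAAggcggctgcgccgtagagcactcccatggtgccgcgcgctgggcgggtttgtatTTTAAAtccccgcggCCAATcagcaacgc
Ncapg: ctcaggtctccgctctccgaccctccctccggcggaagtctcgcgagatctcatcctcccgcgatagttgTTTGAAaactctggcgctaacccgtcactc
Mki67: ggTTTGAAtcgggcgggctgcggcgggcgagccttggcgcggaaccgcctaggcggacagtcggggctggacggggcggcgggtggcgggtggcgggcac
Espl1: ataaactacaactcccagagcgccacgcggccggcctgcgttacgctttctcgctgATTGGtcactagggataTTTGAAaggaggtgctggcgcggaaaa

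The deleted gene was read first, as a check of the labels. Pbrm1 gave 1354, 1385 and 1677 normalized counts (counts divided by the library's size factor) in WT against 397, 459 and 451 in Pbrm1 cKO, and all 3 cKO libraries lay below all WT libraries (log2 fold change -1.76 ± 0.13, standard error, n = 3 and 3, adjusted p = 5.2e-40 in DESeq2). The cKO mean was 29.6% of the WT mean, so part of the transcript signal remained. Libraries held 13253575 to 18338667 assigned reads, and a count of 3, the limit that a count of 0 allows, corresponds to 0.164 to 0.226 CPM (counts scaled to library size). The biological coefficient of variation was 0.16 among WT libraries and 0.0465 among Pbrm1 cKO libraries. WT replicate 1 stood apart from the other WT libraries in markers of other cell types, given further below. Of 54232 genes, 17474 were tested and 15.2% of them were lower and 15.9% higher in Pbrm1 cKO at an adjusted p under 0.05, with a median log2 fold change of -0.00.

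Against that background of 15.2% lower, 31 of the 46 mitotic genes were lower in Pbrm1 cKO, 0 were higher and 15 did not pass. At an unadjusted p under 0.05, 1 gene (Incenp) was higher, and edgeR called 0 higher and limma voom 1. The median log2 fold change over the 46 was -1.30, from -3.00 for Nuf2 to 0.57 for Incenp. In 38 of the 46 every Pbrm1 cKO library lay below every WT library, which held for 24.6% of all tested genes, whereas Incenp alone had all cKO libraries above all WT libraries and 7 genes overlapped. The drop was large for many of them, since 27 were called at a log2 fold change of -1 or less (5.32% of tested genes) and 9 at -2 or less (1.93%). Among the 31 the Pbrm1 cKO mean was 12.6% to 85.5% of the WT mean, with a median of 29.7%. In bulk RNA, fewer dividing cells and less of each transcript per cell cannot be told apart.

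**Figure D1:**
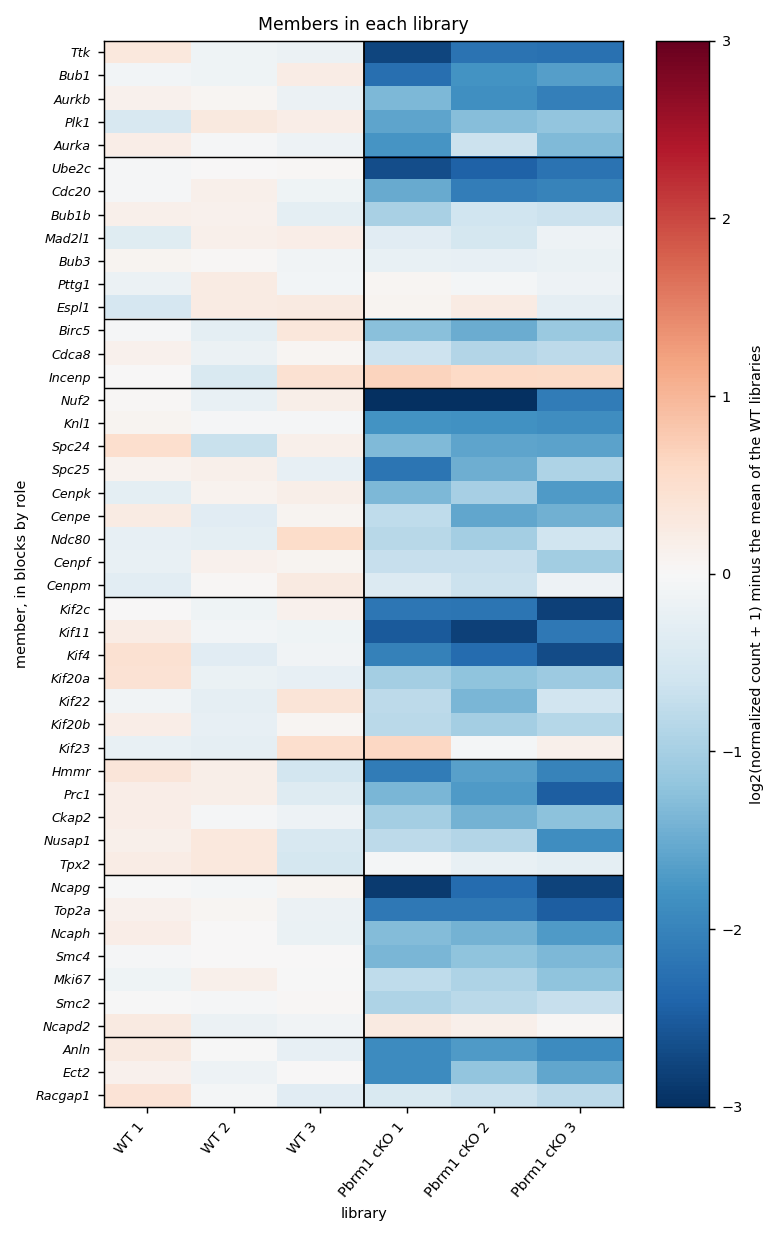
Each row is 1 of the 46 genes in blocks by role and each column 1 library; colour gives log2(normalized count + 1) minus the mean of the 3 WT libraries, from blue (lower) to red (higher), cut at 3 on either side. The 3 Pbrm1 cKO columns are blue in nearly every row and alike among themselves, and Incenp and Ncapd2 are the rows where all 3 lie above the WT mean.

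The mitotic genes moved to the same extent in each library of a group. Their mean log2 level, relative to the mean of the WT libraries, was 0.05, -0.04 and -0.01 in WT and -1.22, -1.24 and -1.29 in Pbrm1 cKO, so the gap between groups was far wider than the spread within either. Some groups of genes differed more among WT libraries than the whole did. Spindle assembly genes were at 0.23, 0.19 and -0.42 in the 3 WT libraries and chromosomal passenger subunits at 0.03, -0.31 and 0.29, whereas the kinases were at 0.02, 0.01 and -0.02. Without WT replicate 1, 28 of the 46 genes were lower, and without any other single library between 25 and 29 were.

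**Figure D2:**
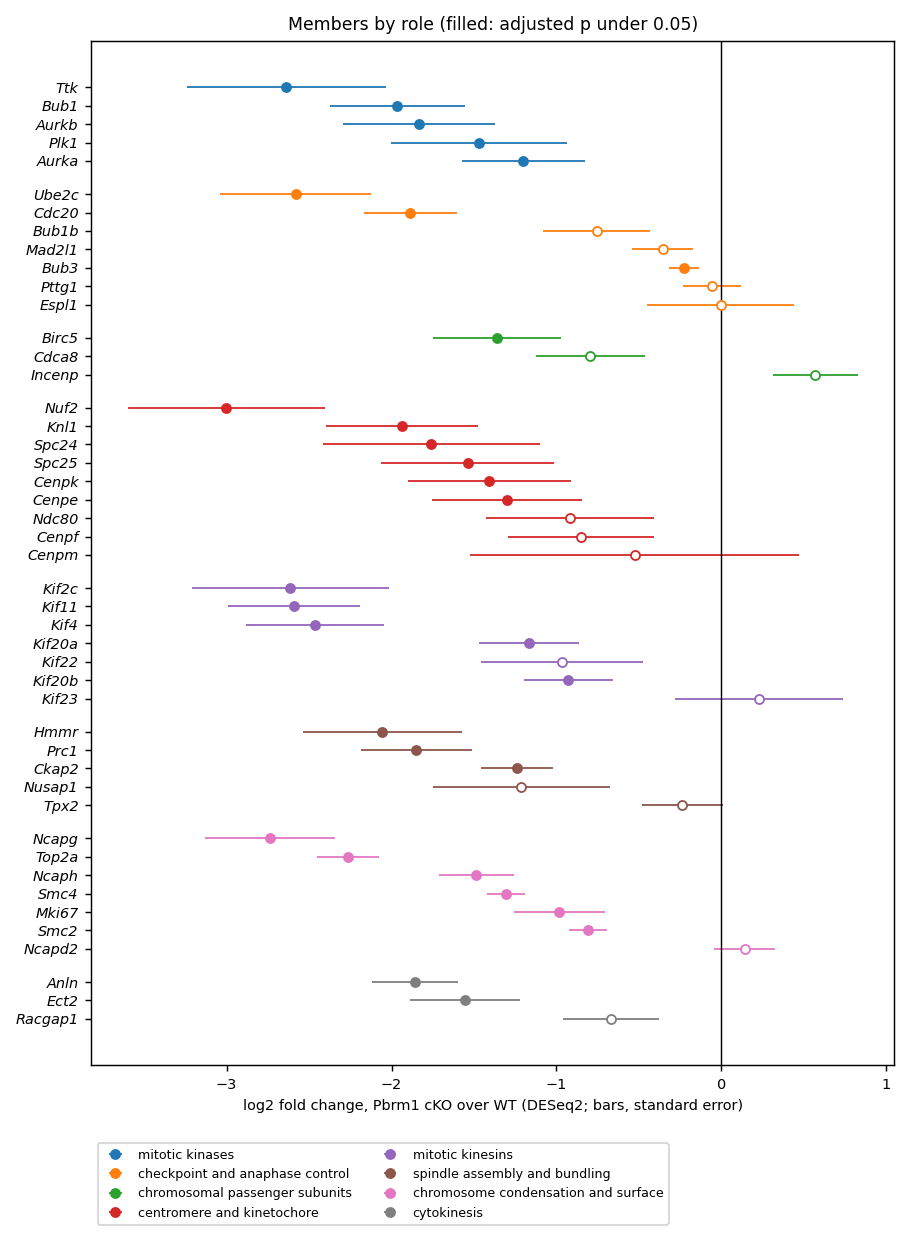
Points are log2 fold changes of Pbrm1 cKO over WT from DESeq2 with their standard errors (3 libraries a group), coloured by role and sorted within it; filled points have an adjusted p under 0.05. All 5 kinases are filled, and the genes nearest to 0 are Espl1, Pttg1, Ncapd2, Bub3, Kif23 and Tpx2.

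All 5 mitotic kinases fell, with a median log2 fold change of -1.83. Ttk (MPS1), which starts checkpoint signalling at kinetochores, gave 32.1, 23.3 and 22.7 normalized counts in WT against 2.96, 4.79 and 4.69 in Pbrm1 cKO. The cKO values were a small fraction of any WT value (log2 fold change -2.64 ± 0.60, adjusted p = 0.0001). Bub1, a kinase of the same checkpoint, gave 43.8, 42.2 and 54.0 in WT and 8.88, 12.8 and 14.1 in cKO, again without overlap (-1.96 ± 0.41, adjusted p = 1.57e-05). Aurkb, the catalytic subunit of the chromosomal passenger complex, gave 37.4, 35.5 and 30.3 in WT and 12.8, 8.79 and 7.51 in cKO. Every cKO library lay below every WT library (-1.83 ± 0.46, adjusted p = 0.00049). Aurka, which matures centrosomes, gave 64.1, 54.4 and 49.7 in WT and 15.8, 35.2 and 21.6 in cKO, with cKO replicate 2 nearest to WT (-1.20 ± 0.37, adjusted p = 0.00629). Plk1, the Polo kinase that acts from mitotic entry to cytokinesis, gave 16.0, 27.7 and 25.9 in WT and 6.91, 8.79 and 9.38 in cKO, with WT replicate 1 the lowest of its group (-1.47 ± 0.53, adjusted p = 0.0224). The Aurka call was lost without cKO replicate 1 (adjusted p = 0.0687). The Plk1 call was kept without WT replicate 1 and lost without any other library (adjusted p from 0.0576 to 0.128).

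The 7 checkpoint and anaphase genes ranged from steep falls to values near the WT level. Their median log2 fold change was -0.36 and 3 were called lower. Cdc20, the activator of the anaphase-promoting complex that the checkpoint holds back, gave 106, 120 and 99.4 normalized counts in WT against 37.5, 24.8 and 26.3 in Pbrm1 cKO (-1.89 ± 0.28, adjusted p = 4.25e-10). Ube2c, the ubiquitin-conjugating enzyme of that complex, gave 41.7, 43.3 and 44.3 in WT and 5.92, 7.19 and 8.44 in cKO (-2.58 ± 0.46, adjusted p = 2.62e-07). Both groups were tight for Ube2c and its cKO mean was 16.7% of the WT mean. Bub3, an adaptor that carries BUB1 and BUBR1 to kinetochores, was the most abundant of the 46 and fell least among those called. Its values were 1836, 1779 and 1635 in WT and 1491, 1471 and 1528 in cKO (-0.23 ± 0.09, adjusted p = 0.0478). That call was kept without WT replicate 3 and lost without any other library (adjusted p from 0.0958 to 0.215).

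The remaining 4 did not pass. Bub1b, which encodes the checkpoint protein BUBR1, gave 59.9, 58.8 and 43.2 in WT and 26.6, 35.2 and 33.8 in Pbrm1 cKO, without overlap (-0.76, 95% interval -1.39 to -0.12, adjusted p = 0.0608). It passed as lower without WT replicate 3 (-0.90, adjusted p = 0.0484), with edgeR (0.0216), limma voom (0.0272) and thinning to the smallest library (0.0352). Mad2l1, the checkpoint protein MAD2, gave 307, 438 and 453 in WT and 312, 272 and 354 in cKO, so the lowest WT library lay within the cKO range (-0.36, interval -0.71 to 0.00, adjusted p = 0.134). Without that library, WT replicate 1, its log2 fold change was -0.52 and passed (adjusted p = 0.00395). Mad2l1 also passed as lower with the length trend removed (adjusted p = 0.0269). Securin (Pttg1) and separase (Espl1), the inhibitor and the protease that cuts cohesin at anaphase, overlapped fully between groups. Pttg1 gave 196, 262 and 206 in WT and 229, 211 and 199 in cKO (-0.06, interval -0.40 to 0.29). Espl1 gave 15.0, 25.5 and 25.9 in WT and 22.7, 25.6 and 17.8 in cKO (-0.00, interval -0.88 to 0.87), an interval that spans sizeable changes of either sign.

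The chromosomal passenger complex places Aurora B on centromeres and then on the central spindle, and its 3 other subunits had log2 fold changes of different sign. Birc5 (survivin) gave 42.8, 35.5 and 56.2 normalized counts in WT against 17.8, 15.2 and 19.7 in Pbrm1 cKO, all cKO values below all WT values (-1.36 ± 0.39, adjusted p = 0.00258). Cdca8 (borealin) gave 52.4, 42.2 and 49.7 in WT and 30.6, 25.6 and 27.2 in cKO, also without overlap, but just missed the threshold (-0.80, interval -1.44 to -0.15, adjusted p = 0.0513). It passed as lower with edgeR (adjusted p = 0.0127), limma voom (0.0167), filterByExpr (0.045) and the length trend removed (0.0345). Incenp, the scaffold that binds the other subunits and the kinase, gave 77.0, 55.5 and 106 in WT and 122, 117 and 114 in cKO. All cKO values were above all WT values, by a margin smaller than the WT spread (0.57, interval 0.06 to 1.08, adjusted p = 0.0794). Incenp passed as higher without WT replicate 3, the highest of the WT libraries (0.83, adjusted p = 0.00921), and in limma voom with a spread for each group (adjusted p = 0.0321).

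Among the 9 centromere and kinetochore genes 6 were called lower and 3 did not pass, with a median log2 fold change of -1.41. The NDC80 complex, the 4-protein rod that grips microtubule ends, was the most complete set. Nuf2 (chromosome 1, 169497934 to 169531464, GRCm38) fell most of all 46 genes, giving 32.1, 26.6 and 35.7 normalized counts in WT against 2.96, 2.40 and 6.57 in Pbrm1 cKO (-3.00 ± 0.60, adjusted p = 5.98e-06). Its cKO mean was 12.6% of the WT mean and rested on raw counts of 3, 3 and 7. Spc24 gave 23.5, 9.99 and 18.4 in WT and 5.92, 4.79 and 4.69 in cKO, with WT replicate 2 well below the other WT libraries (-1.76 ± 0.66, adjusted p = 0.0268). Spc25 gave 27.8, 28.9 and 21.6 in WT and 4.93, 8.79 and 13.1 in cKO (-1.54 ± 0.53, adjusted p = 0.0141). Ndc80 itself gave 18.2, 17.8 and 32.4 in WT and 11.8, 10.4 and 14.1 in cKO and did not pass, although its groups did not overlap (-0.92, interval -1.91 to 0.08, adjusted p = 0.171).

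Knl1, the kinetochore scaffold on which BUB1 and BUB3 dock, had nearly equal values within each group, at 35.3, 32.2 and 32.4 in WT and 8.88, 8.79 and 8.44 in Pbrm1 cKO (-1.94 ± 0.46, adjusted p = 0.000218). Cenpe, the kinesin of the outer kinetochore, gave 38.5, 25.5 and 34.6 in WT and 18.7, 10.4 and 11.3 in cKO (-1.30 ± 0.45, adjusted p = 0.0167). Cenpk, of the constitutive centromere network, gave 21.4, 28.9 and 30.3 in WT and 9.87, 12.8 and 7.51 in cKO (-1.41 ± 0.49, adjusted p = 0.0169). Groups did not overlap for any of these genes. Cenpf, a large protein of the outer kinetochore, averaged 26.5 in WT and 14.7 in cKO and did not pass (-0.85, interval -1.72 to 0.02). Its groups did not overlap, and it passed as lower with edgeR (adjusted p = 0.0251) and limma voom (adjusted p = 0.0405). Cenpm had a WT mean of 4.35 normalized counts, too few to resolve a difference (-0.52, interval -2.48 to 1.43). All values in this group were under 40 normalized counts, and leaving out 1 library ended the calls of Spc24 (any library but WT replicate 2, adjusted p from 0.0729 to 0.148), Spc25 (WT replicate 1 or 2 or cKO replicate 1 or 2, from 0.0513 to 0.101), Cenpe (WT replicate 1 or 3 or cKO replicate 2 or 3, from 0.0718 to 0.117) and Cenpk (WT replicate 2 or 3 or cKO replicate 1 or 3, from 0.0728 to 0.0914).

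Of the 7 mitotic kinesins 5 fell and 2 did not pass, with a median log2 fold change of -1.17. Kif11 (EG5, chromosome 19, 37376403 to 37421859), the motor that pushes spindle poles apart, gave 71.6, 57.7 and 56.2 normalized counts in WT against 9.87, 7.99 and 13.1 in Pbrm1 cKO (-2.59 ± 0.40, adjusted p = 1.62e-09). Kif2c (MCAK), which takes microtubule ends apart to correct faulty attachments, gave 25.7, 23.3 and 28.1 in WT and 4.93, 4.79 and 2.81 in cKO (-2.62 ± 0.60, adjusted p = 0.0001). Kif4, a chromokinesin that also works at the central spindle, gave 82.3, 46.6 and 55.1 in WT and 13.8, 11.2 and 8.44 in cKO (-2.46 ± 0.42, adjusted p = 6.22e-08). These 3 motors fell to between 16.3% and 18.2% of WT, and even the highest cKO value of each was far below its lowest WT value.

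Kif20a (MKLP2), which moves the passenger complex to the central spindle, gave 110, 71.0 and 68.1 in WT and 39.5, 34.4 and 37.5 in Pbrm1 cKO (-1.17 ± 0.30, adjusted p = 0.000799). Kif20b, a kinesin of late cytokinesis, gave 94.1, 68.8 and 86.5 in WT and 46.4, 40.0 and 45.0 in cKO (-0.93 ± 0.27, adjusted p = 0.00318). Groups did not overlap for either, and the cKO values were close together. Kif22 (KID), a chromokinesin, gave 22.4, 20.0 and 32.4 in WT and 13.8, 8.79 and 16.0 in cKO and did not pass (-0.97, interval -1.93 to -0.00, adjusted p = 0.127). It passed as lower with edgeR (adjusted p = 0.0396). Kif23 (MKLP1), the partner of RACGAP1 in centralspindlin, gave 12.8, 12.2 and 21.6 in WT and 23.7, 14.4 and 16.9 in cKO, overlapping and with an interval that spans 0 widely (0.23, interval -0.77 to 1.23). Exons of Kif20a and Kif4 share 33.2% and 15.1% of their bases with genes on the other strand, and the counting used the strand of the read.

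Among the 5 spindle assembly and bundling genes 3 fell, with a median log2 fold change of -1.24. Prc1, which bundles antiparallel microtubules of the central spindle, gave 114, 112 and 75.7 normalized counts in WT against 37.5, 29.6 and 16.9 in Pbrm1 cKO (-1.85 ± 0.33, adjusted p = 4.63e-07). Hmmr, a spindle-pole protein that is also a hyaluronan receptor, gave 48.1, 42.2 and 24.9 in WT and 7.89, 11.2 and 8.44 in cKO (-2.05 ± 0.48, adjusted p = 0.000153). Ckap2, a microtubule nucleation and stabilizing protein, gave 185, 158 and 145 in WT and 78.9, 59.9 and 68.5 in cKO (-1.24 ± 0.22, adjusted p = 2.15e-07). Groups did not overlap for any of these, although Prc1 and Hmmr were clearly lower in WT replicate 3 than in the other WT libraries. Nusap1, which binds spindle microtubules near chromosomes, gave 25.7, 28.9 and 16.2 in WT and 12.8, 12.0 and 5.63 in cKO and did not pass (-1.21, interval -2.27 to -0.16, adjusted p = 0.0717). It passed as lower with edgeR (adjusted p = 0.0265) and limma voom (adjusted p = 0.0332). Tpx2, the activator of Aurora A on the spindle, gave 156, 165 and 91.9 in WT and 128, 115 and 108 in cKO. WT replicate 3 was the lowest of its 6 values, so the groups overlapped (-0.24, interval -0.72 to 0.25, adjusted p = 0.536).

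Condensation and chromosome surface genes held the best-measured changes, and 6 of 7 fell with a median log2 fold change of -1.31. Top2a (topoisomerase II alpha, chromosome 11, 98992943 to 99024189), which untangles sister chromatids, gave 378, 360 and 304 normalized counts in WT against 77.9, 77.5 and 61.0 in Pbrm1 cKO, or 20.8% of WT (-2.27 ± 0.19, adjusted p = 2.48e-31). Smc4, which with Smc2 forms the ATPase core of both condensins, gave 790, 821 and 815 in WT and 313, 351 and 316 in cKO (-1.31 ± 0.12, adjusted p = 1.08e-27). Smc2 gave 719, 709 and 747 in WT and 379, 415 and 448 in cKO (-0.81 ± 0.12, adjusted p = 1.81e-10). For all 3 the spread within a group was small beside the gap between groups.

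The condensin I subunits that sit on that core divided sharply. Ncapg (chromosome 5, 45669919 to 45700546) gave 63.1, 61.0 and 67.0 in WT and 7.89, 12.0 and 8.44 in Pbrm1 cKO, or 14.8% of WT (-2.74 ± 0.40, adjusted p = 1.01e-10). Ncaph gave 191, 166 and 144 in WT and 67.1, 61.5 and 50.7 in cKO (-1.48 ± 0.23, adjusted p = 1e-09). Ncapd2 gave 215, 156 and 165 in WT and 215, 197 and 181 in cKO and overlapped, with an interval that excludes a fall of the size seen in its partners (0.14, interval -0.22 to 0.51, adjusted p = 0.635). Mki67 (Ki-67), which coats mitotic chromosomes and keeps them apart and is the usual stain for cycling cells, gave 72.7, 88.8 and 78.9 in WT and 46.4, 41.5 and 33.8 in cKO. It fell to 50.6% of WT without overlap (-0.98 ± 0.28, adjusted p = 0.00209), less than the median of the 46.

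Of the 3 cytokinesis genes 2 fell. Anln (anillin), the scaffold of the contractile ring, gave 157, 130 and 110 normalized counts in WT against 34.5, 40.0 and 34.7 in Pbrm1 cKO (-1.86 ± 0.26, adjusted p = 2.13e-11). Ect2, the exchange factor that switches on RHOA at the cell equator, gave 71.6, 58.8 and 65.9 in WT and 16.8, 28.0 and 21.6 in cKO (-1.56 ± 0.33, adjusted p = 3.15e-05). Racgap1, the centralspindlin subunit that recruits ECT2, gave 102, 73.2 and 60.5 in WT and 55.2, 48.7 and 44.1 in cKO. Its groups did not overlap but it did not pass (-0.67, interval -1.24 to -0.10, adjusted p = 0.0657). It passed without WT replicate 3 (-0.83, adjusted p = 0.0333), with edgeR (adjusted p = 0.0391), limma voom (0.0343) and the length trend removed (0.0266).

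Levels of different genes were compared per length, as TPM, the counts divided by the exon length in the table and scaled to a fixed library total. In WT, Bub3 led at 47.1 TPM, followed by Smc4 at 29.2, Smc2 at 24.9, Pttg1 at 20.8 and Cdc20 at 10.9, and these 5 made up 55.3% of the sum over the 46. Cenpf was lowest at 0.323 TPM and the median gene stood at 2.15. The sum over the 46 was 241 ± 11.1 TPM in WT and 165 ± 6.95 in Pbrm1 cKO (mean ± SD, n = 3), and the median gene stood at 0.846 in cKO. The TPM scale places all genes 0.20 log2 units higher in cKO than size factors do, so these sums and medians carry that shift, and only the order within a group is read further from it. Ranked by level, Top2a went from 9 to 14, Ube2c from 15 to 28, Kif11 from 18 to 34, Ncapg from 30 to 41 and Nuf2 from 40 to 46, the last place. Incenp went the other way, from 12 to 6. Bub3 and Pttg1, 2 of the 5 most abundant, had cKO means of 85.5% and 96.2% of WT in normalized counts, well above the median of the genes called lower.

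**Figure D3:**
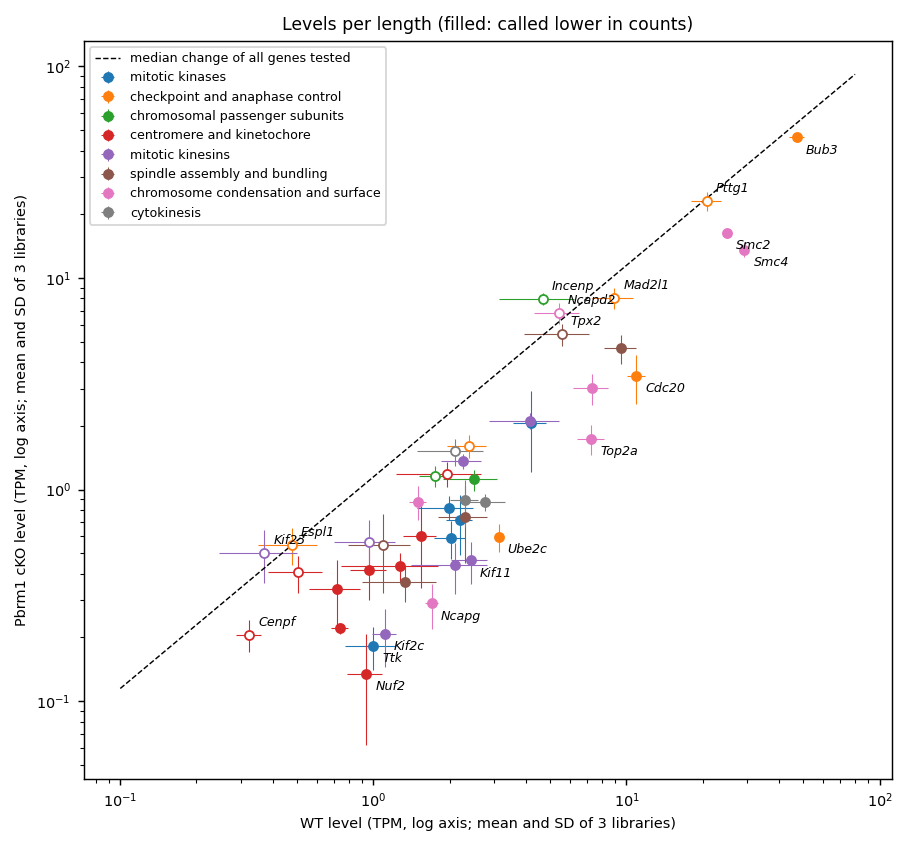
Each point is 1 of the 46 genes, with its level per length (TPM, log axes) in WT on the x axis and in Pbrm1 cKO on the y axis, mean and SD of 3 libraries, coloured by role and filled where the count test called it lower. The dashed line is the median change of all tested genes; most points lie below it at every level, and Bub3, Pttg1, Incenp, Ncapd2, Tpx2, Kif23 and Espl1 lie nearest to it or above it.

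Where the fold changes of partners differed, their ratio within a library changed. The pairs were picked after the values had been seen, so the ratios are a description without a test. The log2 ratio of Ncapg to Ncapd2, per kilobase, was -1.94, -1.53 and -1.48 in WT and -4.94, -4.21 and -4.60 in Pbrm1 cKO, while that of Ncaph to Ncapd2 went from a mean of 0.45 to -1.19. Within the NDC80 complex the ratio of Nuf2 to Ndc80 went from -1.01 to -3.26. In cKO it rested on raw counts of 3, 3 and 7 for Nuf2 and 12, 13 and 15 for Ndc80. The 95% intervals of their log2 fold changes overlapped (-4.17 to -1.83 and -1.91 to 0.08). Within the passenger complex Aurkb to Incenp went from -1.04 to -3.51. The checkpoint target Cdc20 went from 0.30 to -1.25 against its inhibitor Mad2l1, and Bub1 from -4.55 to -6.31 against Bub3. In each of these 6 pairs the WT and cKO ratios did not overlap. Pttg1 to Espl1, the securin and separase pair, stayed at 5.48 and 5.42 with overlapping values, and Racgap1 to Kif23 overlapped as well (2.51 and 1.61).

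**Figure D4:**
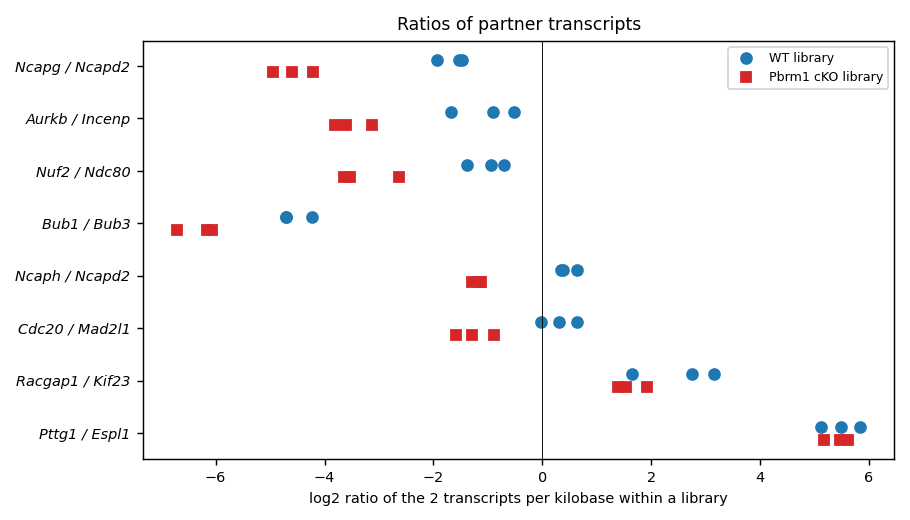
Each row is a pair of partner genes and each point the log2 ratio of their counts per kilobase in 1 library, circles for WT and squares for Pbrm1 cKO. The rows run from the largest shift, Ncapg to Ncapd2 (-2.93 between means), to Pttg1 to Espl1 (-0.07), where the groups overlap.

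Other genes of mitosis were followed in lists of known members, beside the 15.2% of all tested genes lower and the 15.9% higher. Among 10 cyclins, CDK1 and regulators of mitotic entry 6 fell and 4 did not pass (median log2 fold change -1.11), with Cdk1 at -2.70 ± 0.27 (adjusted p = 3.31e-22), Ccna2 at -2.15 ± 0.32 (2.14e-10) and the CDK1 inhibitor kinase Wee1 at -0.80 ± 0.20 (0.000289). Among 18 further spindle and cytokinesis genes specific to mitosis 13 of the 16 tested fell and 3 did not pass (median -1.65), the nuclear import factor Kpna2 being the most abundant (-0.76 ± 0.12, adjusted p = 2.21e-08). Of 33 further centromere and kinetochore genes 18 fell and 1 rose (median -0.67), among them Cenpi (-1.42 ± 0.26), Kntc1 (-1.40 ± 0.29) and the centromere priming factor Mis18a (-0.84 ± 0.27). The 1 that rose was Hjurp, the CENP-A chaperone (0.32 ± 0.12, adjusted p = 0.0215), named after its value was seen. Of the 3 subunits particular to condensin II, Ncapd3 (-0.74 ± 0.14) and Ncapg2 (-0.57 ± 0.16) fell.

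Lists of genes that cells also use outside division were read in the same way, beside the 15.2% of all tested genes that were lower and the 15.9% that were higher. Of 16 general microtubule and centrosome genes 5 rose and 11 did not pass (median 0.14), with Dctn1 of dynactin at 0.74 ± 0.17, the dynein heavy chain Dync1h1 at 0.52 ± 0.09 and the spindle-pole protein Numa1 at 0.47 ± 0.10. Of 12 general cytokinesis genes 3 rose and 9 did not pass (median 0.02), with nonmuscle myosin Myh9 at 0.89 ± 0.16 (adjusted p = 5.2e-07), the septin Sept9 at 0.49 ± 0.10 and the ESCRT adaptor Pdcd6ip at 0.30 ± 0.11. In the core of the anaphase-promoting complex 3 of 15 fell and 3 rose (median -0.04), shares near that background, with Cdc16 at -0.69 ± 0.09 and the interphase activator Fzr1 at 0.89 ± 0.16. In cohesin and its regulators 5 of 15 fell and 1 rose (median -0.06), and the mean log2 level of the list differed by -0.48 in cKO, with no test of that mean. The ring subunit Stag2 fell by 0.27 ± 0.10 and the loader Nipbl rose by 0.58 ± 0.17. The other 4 that fell, named after their values were seen, were low in counts and serve cohesion in dividing cells: the acetyltransferase gene Esco2 (-3.36 ± 0.84), sororin (Cdca5, -1.75 ± 0.59) and the shugoshins Sgo1 (-1.88 ± 0.48) and Sgo2a (-1.78 ± 0.36). No list was tested as a set, nor was the difference between lists.

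**Figure D5:**
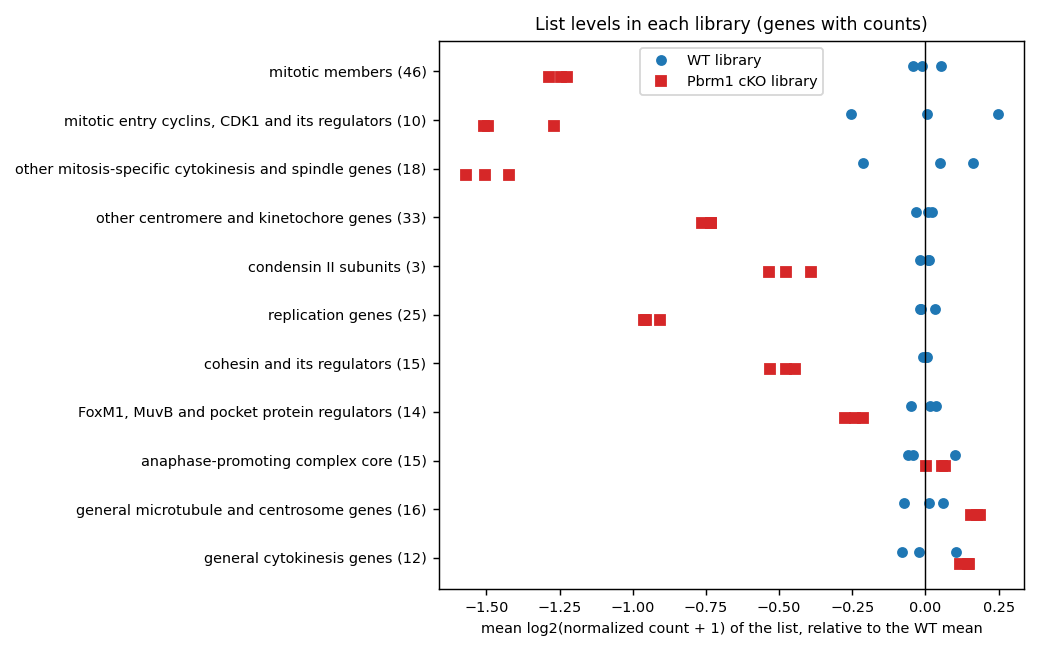
Each row is a gene list with its number of genes and each point 1 library, circles for WT and squares for Pbrm1 cKO; the x axis is the mean log2(normalized count + 1) of the list relative to the WT mean. The 3 cKO libraries lie at -1.22 to -1.29 for the 46 mitotic genes and on the positive side for general microtubule, centrosome and cytokinesis genes.

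The 14 genes of FOXM1, the MuvB complex and the pocket protein family had a median log2 fold change of -0.28, with 5 lower and 2 higher. Of all tested genes 15.2% were lower and 15.9% higher, so the number higher was near that share. Foxm1, the forkhead activator of G2 and M genes, gave 63.1, 54.4 and 60.5 normalized counts in WT against 40.4, 35.2 and 44.1 in Pbrm1 cKO, without overlap, and did not pass (-0.58, adjusted p = 0.123). Mybl2 (B-MYB) gave 22.4, 17.8 and 16.2 in WT and 7.89, 6.39 and 4.69 in cKO and fell (-1.57 ± 0.59, adjusted p = 0.0271). The DNA-binding MuvB subunit Lin54 (-0.33 ± 0.12, adjusted p = 0.0283), the E2F partners Tfdp1 and Tfdp2 (-0.34 and -0.86) and the pocket protein gene Rbl1 (-0.29) were lower, and the repressor E2f4 (0.42 ± 0.11, adjusted p = 0.00102) and Rb1 (0.43 ± 0.14, adjusted p = 0.0106) were higher.

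Replication genes, which act before mitosis, fell nearly as a whole. Of 25, 23 were lower, compared with 15.2% of all tested genes, and 2 did not pass. Their median log2 fold change was -0.70, beside -1.30 for the 46 mitotic genes. Cdc6, which loads the helicase at origins, fell by 2.97 ± 0.23 on the log2 scale (adjusted p = 4.02e-36), Mcm10 by 2.40 ± 0.31 and Cdc45 by 1.88 ± 0.20.

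Markers of several cell types moved with the groups. Their counts are read beside the 15.2% of all tested genes that were lower and the 15.9% that were higher. Stromal markers were abundant in every library, Pdgfra and the progesterone receptor gene Pgr included, but 7 of 14 fell and 1 rose (median -0.25), with Col3a1 at -2.17 and Thy1 at -1.21. Of 12 leukocyte markers 9 of the 10 tested rose (median 2.20), with Cd74 at 3.05 and Csf1r at 2.59, and their summed level was 4015 to 8718 normalized counts in WT and 36359 to 37703 in Pbrm1 cKO. Cd3e, Nkg7 and Cd79a, which define T, natural killer and B cells, were low, at 10.9 normalized counts or less in every library, with log2 fold changes above 0; Cd3e gave 1.07, 4.44 and 1.08 in WT against 10.9, 4.79 and 5.63 in cKO. Epithelial markers summed to 1937 to 3415 in WT and 3742 to 3912 in cKO with 4 of 11 tested higher, and the gland marker Foxa2 was at 3.24 or less throughout. Endothelial markers summed to 1485 in WT replicate 1, to 4149 and 3638 in the other WT libraries and to 1378 to 1519 in cKO. Of the 8, 2 were lower and 1 higher, not far from the shares of all tested genes. Smooth muscle markers overlapped between groups in their sum, with 3 of 6 lower, and all 4 erythroid markers tested were higher, Hbb-bs at 2.14, 0 and 8.65 in WT and 158, 99.9 and 201 in cKO. The part of these cell types in the change of the mitotic genes was not tested. Leaving out WT replicate 1, the WT library lowest in epithelial, leukocyte and endothelial markers, left the median log2 fold change of the 46 at -1.25. The libraries of that fit still differed by group in leukocyte markers, so it cannot separate cell types from genotype.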

How the data were processed

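RNA-seq was available for 6 libraries, 3 WT and 3 Pbrm1 cKO. The authors trimmed single-end reads, mapped them to GRCm38 with HISAT2 and counted them by strand over the genes of GENCODE release 18 (featureCounts 1.6.4), and the deposited table holds raw counts per gene with no normalization; reads mapping to several places or overlapping several genes were left out by default. The labels describe random and poly(T) priming with depletion, the study's methods poly(A) selection, so the RNA classes captured are not settled. Counts were tested with DESeq2 1.42.0 (R 4.3.3; the tool the study used; Wald test, all 6 libraries, Benjamini-Hochberg over 17474 genes, threshold 0.05 here), after the scripts were tested on simulated data. Errors are standard errors, intervals are 95% Wald intervals, and limits cover counting error only. The alternatives were edgeR 4.0.16, limma 3.58.1, other scalings and filters, a replicate block and leaving out each library. The log2 ratios and TPM were computed from the counts and the deposited exon lengths. The 46 genes, the other lists and the markers were chosen with earlier results of these data known. Named genes are the 46, Pbrm1, up to 3 of each other list with the largest called change at a mean of at least 50 normalized counts, the CHR regulators and cell type markers. Promoters were shown for genes with a CHR within 100 bases before the start, ranked by WT level, at most 8, leaving out any reaching more than 30 bases into the annotated gene, an exception added after the data were seen. Sequences are from RefSeq (GRCm38.p6).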

Additional observations from a re-analysis of the deposited data

How the results depend on the processing

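Under 16 alternatives, 18 of the 31 mitotic genes called lower kept their call in all, and 24 did in all but the test against a log2 fold change of 0.58, which asks for a larger change and left 18 at its adjusted p threshold of 0.1. Read at 0.05, a setting chosen after seeing the data, that test left 16, without Knl1 and Ect2. The count was 36 with edgeR, 35 with limma voom or at an adjusted p of 0.1, 30 with TMM factors, without independent filtering or after thinning to the smallest library, 31 with filterByExpr and 34 with a length trend removed, and 25 to 29 without a single library. The count higher was 1 (Incenp) with limma voom and at an adjusted p of 0.1, and 0 to 1 without a single library. The median log2 fold change was -1.23 after thinning, -1.37 with the length trend removed and -1.36 to -1.23 without a single library. Pbrm1 stayed between -1.89 and -1.66. Replicate numbers are shared between groups, but same-numbered libraries did not deviate together (correlations 0.114, -0.0515 and 0.0028), so the block is no pairing; with the replicate block 25 genes were lower, 0 higher, and the median was -1.31. Espl1, near 0 in every fit, turned positive with edgeR (0.0034), TMM factors (0.0109), limma voom (0.0277), thinning (0.0032) and the replicate block (0.0135), and without WT replicate 2, WT replicate 3 or cKO replicate 3, ranging from -0.2218 to 0.1314 without a single library; Pttg1 did so without WT replicate 2, within -0.1383 to 0.0788. Depth limits the lowest genes: 13 of the 46 had a WT mean under 30 normalized counts.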
